A study of Mus musculus with 12 samples.

Results

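This report describes 9 genes of the interleukin (IL)-6 and IL-10 cytokine families in M1-activated bone marrow-derived macrophages (BM-Mɸs), out of 22243 genes measured. They were chosen by name: the cytokines Il6, Lif, Osm, Il10 and Il19 and the receptor chains Il6ra, Il6st, Il10ra and Il10rb. Bulk RNA sequencing covered cultures from 6 ErbB4myeKO mice, in which LysMCre deletes a floxed ErbB4 gene, and from 6 ErbB4FF littermates, which carry the floxed gene without the Cre, with 1 mouse of each genotype from each of 6 litters. All mice were on a C57Bl/6 background, and the labels give neither age nor sex. Marrow was grown in medium with M-CSF, and M1 activation of all 12 cultures used IFN-γ at 100 U/mL (16 h) followed by LPS at 100 ng/mL (6 h), so the values describe activated cells only. The LysM promoter is active in macrophages, monocytes and neutrophils, and deletion by it is often incomplete. The comparison asks how the level of these transcripts relates to myeloid ErbB4.

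IL-6, LIF and OSM belong to one cytokine family, whose receptors share the signalling chain gp130, encoded by Il6st. IL-6 first binds the IL-6 receptor α chain, encoded by Il6ra, and gp130 then signals through JAK kinases to STAT3, with SOCS3 as a feedback inhibitor. IL-10 binds a receptor of IL-10Rα (Il10ra) and IL-10Rβ (Il10rb), also signals through STAT3, and limits the output of inflammatory cytokines in LPS-stimulated macrophages. IL-19 is a relative of IL-10 that signals through a different receptor pair, IL-20Rα and IL-20Rβ.

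Promoters of 3 cytokine genes with an entry in RefSeq (GRCm38.p6) are shown to set the inducible genes beside each other. Each is the run of 250 bases upstream of the RefSeq transcription start, 5′ to 3′ on the strand of the gene, with matches to searched motifs in capitals. The window of Il6 is chr5:30012864-30013113 (+), that of Lif chr11:4257318-4257567 (+) and that of Il19 chr1:130940116-130940365 (-).
Il6: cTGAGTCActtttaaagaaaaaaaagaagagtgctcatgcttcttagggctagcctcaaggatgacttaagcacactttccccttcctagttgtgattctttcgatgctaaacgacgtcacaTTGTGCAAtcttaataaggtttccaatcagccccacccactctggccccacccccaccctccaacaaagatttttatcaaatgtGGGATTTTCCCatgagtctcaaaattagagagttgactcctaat
Lif: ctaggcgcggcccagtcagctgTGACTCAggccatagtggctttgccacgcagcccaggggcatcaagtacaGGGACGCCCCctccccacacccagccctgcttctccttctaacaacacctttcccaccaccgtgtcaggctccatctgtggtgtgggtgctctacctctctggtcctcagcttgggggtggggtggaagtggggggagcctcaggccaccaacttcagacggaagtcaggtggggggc
Il19: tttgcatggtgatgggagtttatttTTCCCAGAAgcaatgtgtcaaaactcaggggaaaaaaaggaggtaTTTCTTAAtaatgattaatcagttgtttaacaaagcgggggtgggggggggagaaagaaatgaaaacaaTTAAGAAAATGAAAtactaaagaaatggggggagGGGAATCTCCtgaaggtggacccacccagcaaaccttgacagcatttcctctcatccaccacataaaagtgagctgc

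The motifs searched on both strands were GGGA followed by 4 bases of any kind and CC for NF-kB, TTNNGNAA for C/EBP, TGANTCA for AP-1, TTCNNNGAA for STAT, a pair of GAAA with 2 bases of any kind between them for the interferon-stimulated response element (ISRE) and TATAAA for the TATA box. The Il6 window holds an NF-kB match at -44 to -35 from the start, which overlaps a match on the other strand at -43 to -34. It also holds a C/EBP match at -128 to -121 and an AP-1 match at -249 to -243. The Lif window holds an NF-kB match at -178 to -169 and an AP-1 match at -228 to -222. In the Il19 window, NF-kB matched at -77 to -68, C/EBP at -180 to -173 and -111 to -104, STAT at -225 to -217, and ISRE at -107 to -98, where it overlaps the nearer C/EBP match. Of 32851 promoters of that length, 17.6% hold the NF-kB motif, 36.8% the C/EBP motif, 6.75% the AP-1 motif, 7.02% the STAT motif, 2.98% the ISRE and 12.4% the TATA box. These matches are descriptions of letters and not of bound sites. Il6ra and Il6st were also matched in the set of RefSeq promoters used, and Osm, Il10, Il10ra and Il10rb were not, so 5 of 9 genes matched. This does not show that RefSeq lacks those genes.

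In GENCODE M21 (mm10/GRCm38), Il6 (ENSMUSG00000025746) lies at chr5:30013114-30019981, Il6ra (ENSMUSG00000027947) at chr3:89864059-89913196 and Il6st (ENSMUSG00000021756) at chr13:112464070-112510086. Osm (ENSMUSG00000058755) at chr11:4236420-4241026 and Lif (ENSMUSG00000034394) at chr11:4257557-4272514 are neighbours, with 16.5 kb between them. Il19 (ENSMUSG00000016524) at chr1:130932656-130940115 and Il10 (ENSMUSG00000016529) at chr1:131019845-131024974 lie 79.7 kb apart and on opposite strands. Il10ra (ENSMUSG00000032089) lies at chr9:45253837-45269149 and Il10rb (ENSMUSG00000022969) at chr16:91406164-91425834. Levels are sums over all principal transcripts of the gene: 3 for Il6st, 3 for Il19 and 1 for each of the other 7 genes. The transcripts of Il19 share between 95% and 100% of their 31-base words with other transcripts of the gene, so a split between isoforms is uncertain. For Il6st the share was 62.4% to 99.6%. The single listed transcripts of Lif, Il6, Il10ra, Il6ra and Il10rb share 93.8% to 99.3% with annotated transcripts that are not among the values. Levels of these genes therefore also depend on how reads were assigned between transcripts. The share was 31.8% for Osm and 0% for Il10. For Il10rb, 29.8% of the words occur in the overlapping model Gm21970.

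The values are TPM, the usual unit of transcript abundance, which the authors estimated with kallisto and which is scaled for library total and transcript length, so that levels of different genes can be set beside each other. Between 59.0% and 74.7% of the TPM of a library fell on principal transcripts, and between 10214 and 12985 genes were above 0. Litter 5 stood apart. Genes with transcripts under 1500 bases were at a median of 0.72 (log2) above the other litters there, and those of 3000 bases or over at -0.39. The 10 most abundant genes took 14.8% and 16.5% of the TPM in its libraries, against 9.06% to 11.3% in the other 10. Libraries of litters 5 and 6 had at most 0.102 TPM as the mean of 4 Y-linked genes, where the other 8 had 9.03 to 12.3 TPM. Erbb4 was at 0.28 to 0.852 TPM in libraries labelled ErbB4myeKO and 0.372 to 0.716 TPM in those labelled ErbB4FF, and was higher in the former in 4 of 6 litters (mean log2 ratio 0.17 ± 0.29 SD, exact permutation p = 0.25). Lyz2, the locus into which LysMCre is inserted, was lower in the libraries labelled ErbB4myeKO in litters 1 to 5, at 0.434 to 0.57 of the TPM of the littermate. In litter 6 it was the other way, at 7997 TPM in the library labelled ErbB4myeKO and 2964 TPM in that labelled ErbB4FF, a ratio of 2.7. Litter 6 thus goes against its labels by this locus, and Erbb4 does not settle the genotype of any litter. Genotype names stand for the labels throughout, and the ratios of the 9 genes and of the lists described are given with and without litter 6. Of 9 neutrophil markers, 3 were under 0.1 TPM, and the summed level was 39.6 to 371 TPM in ErbB4myeKO and 39.9 to 185 TPM in ErbB4FF, with S100a8 highest in litters 5 and 6. Of the 4 tested, 2 had a mean ratio above 0 and 2 below, with a median of 0.03. Camp was higher in ErbB4myeKO in 6 of 6 litters, by 0.45 on the log2 scale (exact permutation p = 0.0312, unadjusted limma p = 0.0369), at 0.65 to 10.5 TPM, while S100a9 had -0.24 and Ngp -0.36, each higher in 3 of 6. Without litter 6, Camp had 0.51 (unadjusted p = 0.0429), S100a9 -0.53 and Ngp -0.53. Of 5 dendritic cell markers, 2 were under 0.1 TPM, and the summed level was 8.95 to 33.4 TPM in ErbB4myeKO and 4.47 to 25.5 TPM in ErbB4FF. Xcr1 was higher in 5 of 6 litters, by 0.63 (exact permutation p = 0.0938, unadjusted limma p = 0.028), and without litter 6 by 0.62 (unadjusted p = 0.0664). The other dendritic cell markers did not share this rise: Clec9a had 0.10, and -0.16 without litter 6. At means under 1 TPM, Zbtb46 had -0.18, lower in 4 of 6 litters, and Flt3 had 0.02. Of 6 stroma markers none was under 0.1 TPM, and the summed level was 9.28 to 103 TPM in ErbB4myeKO and 15.9 to 97.9 TPM in ErbB4FF. The 5 tested each had a mean ratio above 0 (median 0.14), with 0 at an unadjusted p under 0.05, and without litter 6, 2 were above 0 (median -0.02). The part of these cells in the results below was not tested. The 5 macrophage markers other than Lyz2 summed to 1430 to 2204 TPM in ErbB4myeKO and 1328 to 2129 TPM in ErbB4FF. Of these, Adgre1 had 0.01, Cd68 -0.12, Csf1r 0.05 and Itgam -0.20 on the log2 scale, and Mertk had 0.14, higher in 6 of 6 litters (exact permutation p = 0.0312, unadjusted limma p = 0.126). Without litter 6, Adgre1 had 0.09, Cd68 -0.16, Csf1r 0.07 and Mertk 0.07, and Itgam had -0.29 (unadjusted p = 0.00317).

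By the listed principal transcripts, Il6 was by far the most abundant of the 9 genes, and its own receptor chain Il6ra was the least abundant. Il6 had a mean of 1753 TPM over 12 libraries and stood at rank 53 of 22243 genes. Il10ra (125 TPM, rank 724) and Il10rb (107 TPM, rank 826) followed, then Il10 (54.3 TPM, rank 1441) and Il19 (17.1 TPM, rank 3179). Osm (9.09 TPM, rank 4442), Lif (6.54 TPM, rank 5195), Il6st (6.14 TPM, rank 5315) and Il6ra (rank 6923) formed the lower end. By the listed principal transcripts, both IL-10 receptor chains were at far higher levels than either IL-6 receptor chain.

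**Figure D1:**
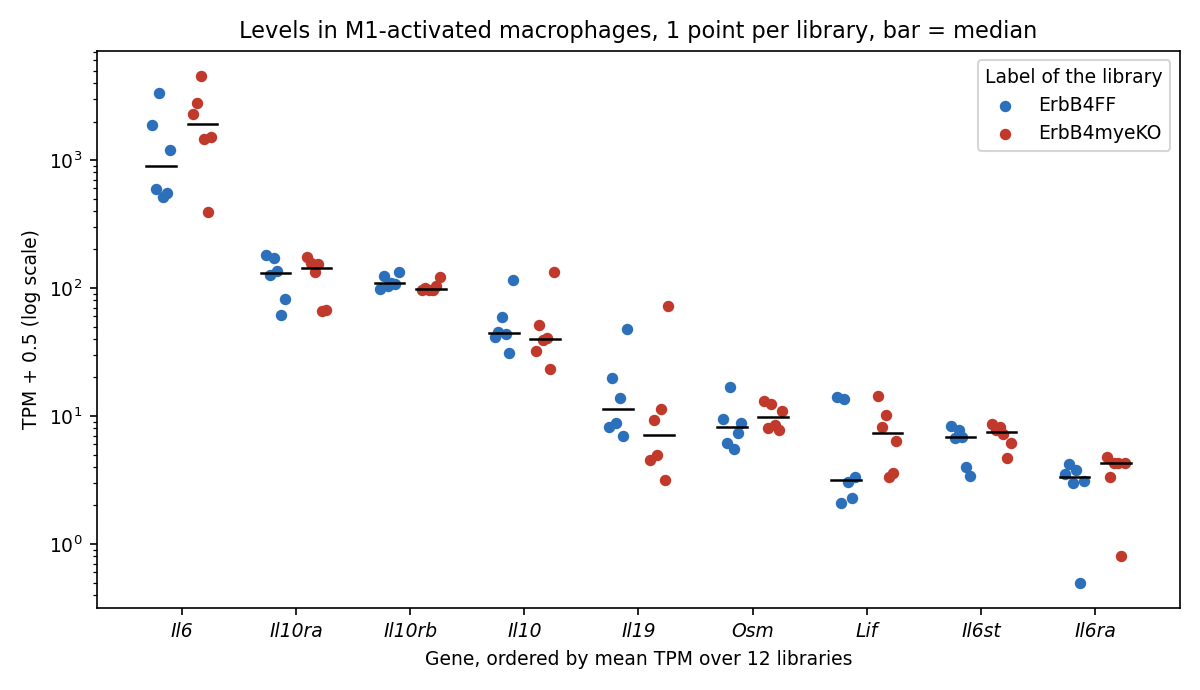
TPM + 0.5 on a log axis for the 9 genes, ordered by mean level, with 1 point for each of 12 libraries, blue for ErbB4FF and red for ErbB4myeKO, and a bar at the median of 6. Il6 lies above every other gene in all 12 libraries, and the points of both genotypes overlap for each of the 9 genes.

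Some neighbours in this order did not differ beyond their spread. Il6 exceeded Il10ra in 12 of 12 libraries, Il10 exceeded Il19 in 12 of 12, Il6st exceeded Il6ra in 12 of 12 and Il10rb exceeded Il10 in 11 of 12. Il10ra exceeded Il10rb in 8 of 12 and Osm exceeded Lif in 9 of 12. Il19 exceeded Osm in 6 of 12 and Lif exceeded Il6st in 6 of 12. Within a library, Il6 was between 10.3 and 117 times the level of Il10, with a median of 26.9. In the 11 libraries with Il6ra above 0, Il6 was between 157 and 1349 times as abundant as Il6ra, with a median of 536.

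By genotype, Il6, Lif, Osm, Il6ra and Il6st each had a mean ratio above 0 in libraries labelled ErbB4myeKO, and Il10, Il19, Il10ra and Il10rb each had one below 0. Il10ra was close to 0, at -0.02, and was at 0.03 without litter 6, where 6 of the 9 were above 0 and 3 below. None of the 9 passed the test across all genes. In limma with litter as a block, the number of genes with an adjusted p under 0.05 was 0 of 8780 tested (0% called), and the smallest adjusted p of the 9 was 0.603. At an unadjusted p under 0.05, 721 genes passed (8.21%), of which 385 were lower (4.38%) and 336 higher (3.83%), and 1 of the 9 was among them, Il19, which was lower. The same direction in all 6 litters was seen in 423 genes (4.82%) and in 2 of the 9, Il6st and Il10rb. Without litter 6, 1 of the 9 passed at an unadjusted p under 0.05 (Il19, with 513 of all genes or 5.84%), and 3 of the 9 kept 1 direction in all 5 litters (Il6st, Il10rb and Il19, with 698 of all genes or 7.95%). The median log2 ratio was 0.24 over the 9 genes and -0.00068 over all genes tested, and without litter 6 it was 0.13 and -0.0069. The ratios are differences of log2(TPM + 0.5) within a litter, ErbB4myeKO minus ErbB4FF, which understates them for genes of low level.

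**Figure D2:**
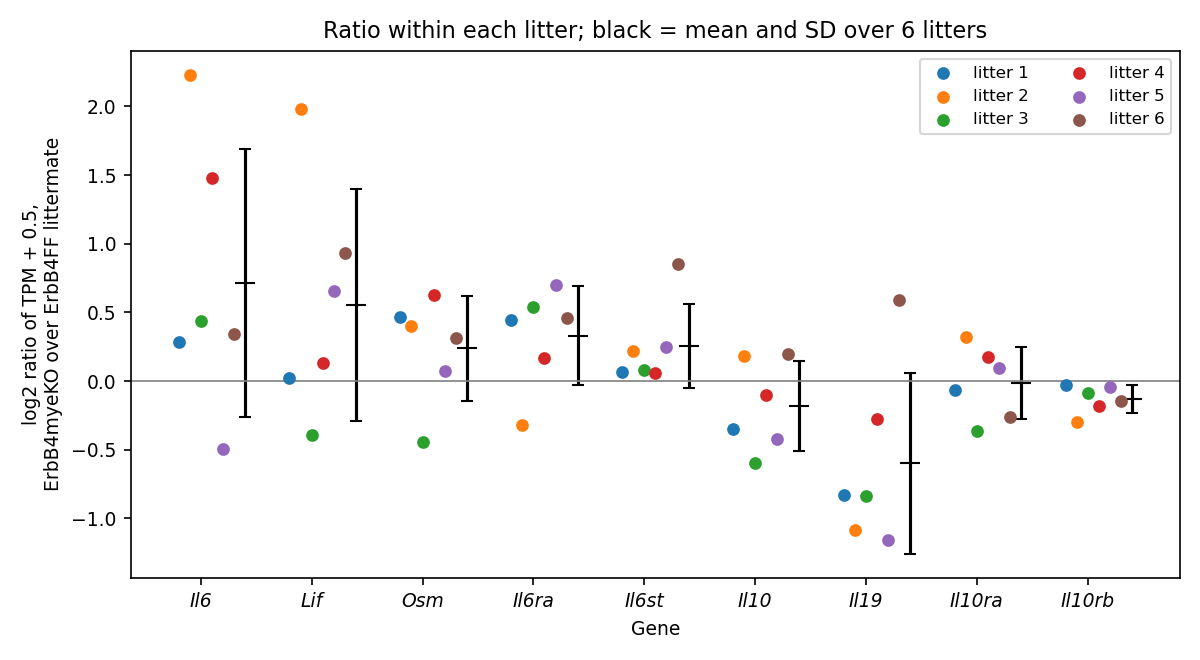
Log2 ratio of TPM + 0.5, ErbB4myeKO over the ErbB4FF littermate, for each gene, with 1 colored point per litter and the mean and SD of 6 litters in black. All 6 points of Il6st lie above 0 and all 6 of Il10rb below 0, and Il6 spans from -0.49 in litter 5 to 2.23 in litter 2.

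Il6 encodes a pyrogenic cytokine that activated macrophages release in quantity. In libraries labelled ErbB4myeKO it was at 391 TPM at the lowest, 1897 at the median and 4530 at the highest. In those labelled ErbB4FF it was at 518, 895 and 3338 TPM. The groups overlapped, and the highest library of each group was from litter 3. Litter by litter, from 1 to 6, the log2 ratio was 0.28, 2.23, 0.44, 1.48, -0.49 and 0.34. In litter 2, the levels were 2799 TPM in ErbB4myeKO and 596 TPM in ErbB4FF, and in litter 4 they were 1447 and 518 TPM. The mean ratio of 0.71 ± 0.97 (SD, n = 6 litters), a fold of 1.64, did not pass the test (95% interval -0.05 to 1.47, unadjusted p = 0.0623, adjusted p = 0.603 by limma). The libraries of litter 5 stood apart and gave the only ratio below 0, so leaving them out must raise the mean, which was then 0.96. Without litter 2 the mean was 0.41, and without litter 6 it was 0.79.

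Lif encodes leukemia inhibitory factor, which signals through LIFR and gp130. Its levels were 2.83, 6.81 and 13.8 TPM (lowest, median, highest) in ErbB4myeKO and 1.59, 2.68 and 13.6 TPM in ErbB4FF. In both groups the libraries of litters 1 and 3 were the highest. The log2 ratio was 1.98 in litter 2 and between -0.39 and 0.94 in the others, with a mean of 0.56 ± 0.84 (SD, n = 6 litters) and an unadjusted limma p of 0.0965. Without litter 2 the mean was 0.27, and without litter 6 it was 0.48. The only ratio below 0 was that of litter 3 (-0.39), and without this litter the mean was 0.75.

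Osm encodes oncostatin M, a product of activated myeloid cells. It was at 7.29, 9.26 and 12.7 TPM in ErbB4myeKO and 5.03, 7.64 and 16.3 TPM in ErbB4FF, where the highest value was from litter 3. It was higher in ErbB4myeKO in 5 of 6 litters, the exception being litter 3 (-0.45). Its log2 ratio averaged 0.24 ± 0.38 (SD, n = 6 litters, exact permutation p = 0.188), with a 95% interval of -0.10 to 0.58. By limma the unadjusted p was 0.145. As litter 3 held the only ratio below 0, leaving it out must raise the mean, which was then 0.38. Leaving out any other litter gave means of 0.16 (without litter 4) to 0.27 (without litter 5), with 0.22 without litter 6.

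Of the IL-6 receptor chains, Il6ra was listed at a low level in all libraries, and lowest in litter 5. The value is for 1 of 2 annotated transcripts, and the assignment of reads to the other was not tested. From litter 1 to 6 Il6ra was at 4.25, 2.87, 3.81, 3.77, 0.311 and 3.8 TPM in ErbB4myeKO and at 3.0, 3.7, 2.47, 3.31, 0 and 2.62 TPM in ErbB4FF. Setting litter 5 aside, all 10 libraries lay between 2.47 and 4.25 TPM. The log2 ratio was above 0 in 5 of 6 litters, with a mean of 0.33 and an unadjusted limma p of 0.0857. The mean was 0.26 without litter 5, where one library is listed at 0, and 0.30 without litter 6. It was 0.46 without litter 2, which held the only ratio below 0.

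Il6st was at 4.23, 7.0 and 8.17 TPM (lowest, median, highest) in ErbB4myeKO and at 2.87, 6.31 and 7.79 TPM in ErbB4FF. The lowest 4 libraries were those of litters 5 and 6. The ratio was above 0 in 6 of 6 litters, but between 0.06 and 0.25 in 5 of them and 0.86 in litter 6. The mean of 0.25 ± 0.31 (SD, n = 6 litters) had an exact two-sided permutation p of 0.0312, the smallest that the 64 swaps within litters can give, and an unadjusted limma p of 0.0894. The largest ratio is thus from the litter whose Lyz2 goes against its labels, and without it the mean was 0.13 (unadjusted p = 0.227).

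Il10, which encodes the inhibitory cytokine of this set, was at 22.9, 39.6 and 133 TPM in ErbB4myeKO and at 30.8, 44.0 and 116 TPM in ErbB4FF. In both groups the highest library was from litter 6 and the lowest from litter 5, and the groups overlapped almost entirely. The log2 ratio was -0.35, 0.18, -0.59, -0.10, -0.42 and 0.20 from litter 1 to 6. The mean was -0.18 ± 0.33 (SD, n = 6 litters), with a 95% interval of -0.46 to 0.10 and an unadjusted limma p of 0.174. Without litter 6 the mean was -0.26 (unadjusted p = 0.0812), and without litter 3 it was -0.10 (unadjusted p = 0.423).

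Il19 had the largest SD of the 9 genes on the log2 scale, with levels from 2.64 to 71.7 TPM. In ErbB4myeKO it was at 4.07, 8.79, 4.44, 10.8, 2.64 and 71.7 TPM from litter 1 to 6, and in ErbB4FF at 7.65, 19.2, 8.32, 13.2, 6.48 and 47.5 TPM. It was lower in ErbB4myeKO in litters 1 to 5 and higher in litter 6, where both libraries were far above the rest and Lyz2 goes against the labels. Its log2 ratio averaged -0.60 ± 0.66 (SD, n = 6 litters), a fold of 0.66 (95% interval -1.13 to -0.06). The unadjusted limma p was 0.0326 and the adjusted p 0.603. Without litter 6 the mean was -0.84 (unadjusted p = 0.00137, adjusted p = 0.767). With litter 1, 2, 3 or 5 left out, the unadjusted p was between 0.0774 and 0.0913. The most abundant transcript alone gave a mean of -0.77 with an unadjusted p of 0.121.

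The IL-10 receptor chains differed in how much they varied. Il10ra was at 65.5, 143 and 174 TPM (lowest, median, highest) in ErbB4myeKO and at 61.2, 131 and 182 TPM in ErbB4FF, with the libraries of litters 5 and 6 the lowest 4. Its ratio was above 0 in 3 of 6 litters, with a mean of -0.02 ± 0.26 (SD, n = 6 litters) and a 95% interval of -0.25 to 0.22. Without litter 6 the mean was 0.03. Il10rb, a chain shared with the receptors for IL-22 and interferon λ, was at 95.3, 98.4 and 121 TPM in ErbB4myeKO and at 97.0, 108 and 133 TPM in ErbB4FF. It was lower in ErbB4myeKO in 6 of 6 litters, by log2 values of -0.03 to -0.30. The mean was small, at -0.13 ± 0.10 (SD, n = 6 litters, exact permutation p = 0.0312), with an unadjusted limma p of 0.0587 and an adjusted p of 0.603. Without litter 6 it was -0.13 as well (unadjusted p = 0.0961).

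Litter took a larger share of the spread than genotype for all 9 genes. It held 72.8% (Il10rb) to 95.5% (Il10ra) of the sum of squares of log2 values over 12 libraries, against a median of 78.1% over all genes tested. The share of genotype was 18.1% for Il10rb, 10.3% for Il6 and 0.0205% for Il10ra, against a median of 2.49%. These shares take the labels of every litter as given. They were not computed without the litter whose Lyz2 goes against its labels, so the size and order of the genotype shares also rest on that litter. Il19 had an SD of 1.34 (log2), and 94.3% of genes tested had a smaller one. Il10rb was among the steadiest transcripts, with an SD of 0.16, and 3.41% of genes had a smaller one. Each litter also carries its own batch letter on the labels, so litter and batch cannot be told apart.

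The litters set the members apart in different ways. Il6, Lif and Osm had their highest pair means in litters 1 and 3, with Il6 at 3934 TPM in litter 3 and 471 TPM in litter 5. Il10 and Il19 were highest in litter 6, at pair means of 124 and 59.6 TPM, against at most 48.9 and 14.0 TPM in the other litters. Il10ra was at 63.3 and 74.3 TPM in litters 5 and 6 and between 142 and 178 TPM in litters 1 to 4. S100a8 (24.8 to 42.5 TPM in litters 1 to 4, 72.1 to 253 TPM in litters 5 and 6) and the Y-linked genes also separated litters 5 and 6 from the others, and their part in these levels was not tested.

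**Figure D3:**
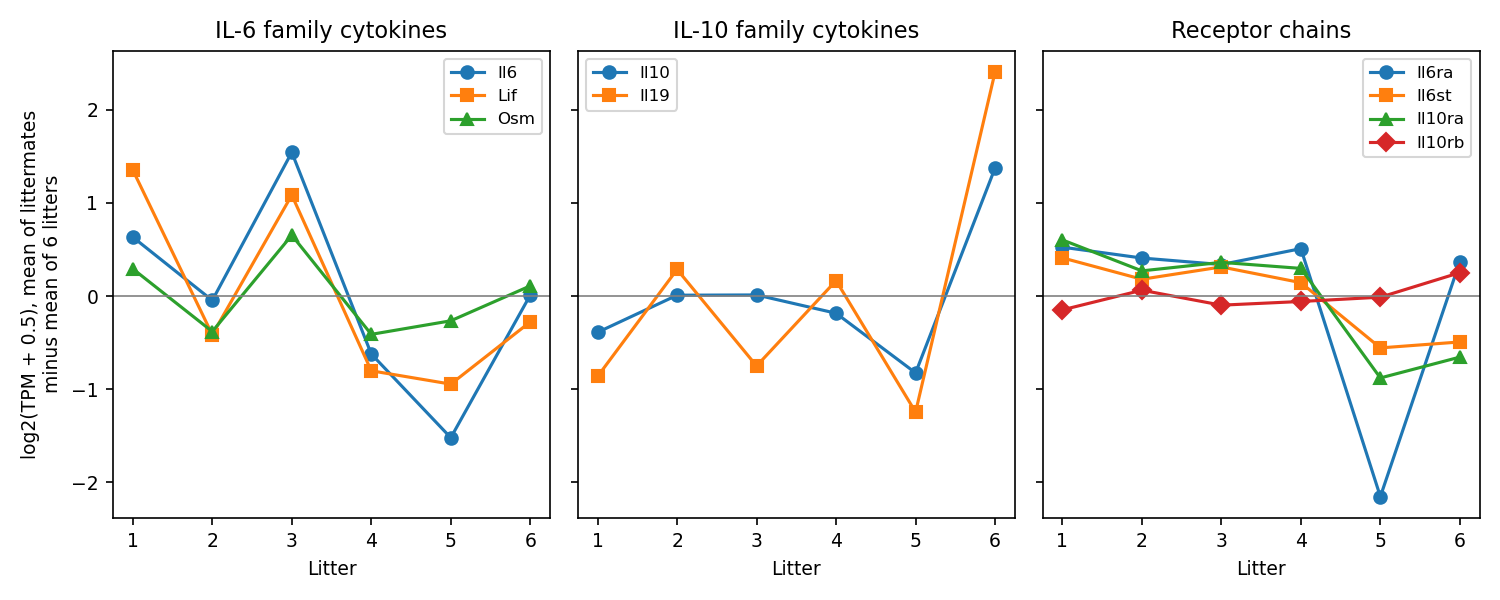
Mean log2(TPM + 0.5) of the 2 littermates minus the mean of 6 litters, by litter, for the IL-6 family cytokines, the IL-10 family cytokines and the receptor chains. Il10 and Il19 peak in litter 6, Il6ra drops in litter 5, and Il10ra and Il6st are low in litters 5 and 6 while Il10rb stays between -0.15 and 0.25.

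Across the 12 libraries, the gene whose log2 level followed Il10 most closely among 5635 was its chromosomal neighbour Il19 (Pearson r = 0.92). The next were Pla2g4a (r = 0.91), a phospholipase that releases arachidonic acid, and Ctla2b (r = 0.90). The likeness leaned on litter 6: without its libraries r was 0.69 over 10 libraries and Il19 stood at rank 817, while leaving out any other litter gave r of 0.90 to 0.95 and ranks of 1 to 14. For Il19, the closest genes were Cyth3 (r = 0.94), Il10 and Pitpnc1 (r = 0.92). Il20 and Il24, which lie in the same cluster as Il10 and Il19, had a mean of 0.0293 TPM and were listed at 0, in that order.

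For Il6 the closest genes were Ptgs2 (r = 0.98), which encodes the prostaglandin synthase COX-2, Txnrd1 (r = 0.98), a thioredoxin reductase, and Slc7a11 (r = 0.97), a cystine transporter. Ptgs2 had a mean of 3562 TPM. For Lif they were Wdr43 (r = 0.94), H2-M2 (r = 0.92) and Tmbim1 (r = 0.91), and for Osm Eif3c (r = 0.91), Lars (r = 0.91) and the chemokine gene Cxcl1 (r = 0.90). The 3 cytokines of the IL-6 family also followed each other, with r of 0.83 for Il6 and Lif, 0.80 for Lif and Osm and 0.79 for Il6 and Osm. The lowest of these with any 1 litter left out was 0.70. Il6 and Il10 had r of 0.26, which was -0.12 without litter 5 and 0.53 without litter 6.

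Among the receptor chains, Il6st and Il10ra followed each other (r = 0.84). Il10ra was closest to the cyclin gene Ccnd2 (r = 0.98), Ccrl2 (r = 0.96) and the peptide transporter gene Tap1 (r = 0.96). Among the 3 closest to Il6st were Zmiz1 (r = 0.94) and Atad2b (r = 0.92), and Il10rb was closest to Rhoq (r = 0.91), Slc25a24 (r = 0.83) and Necap1 (r = 0.83). For Il6ra the closest were Itsn2 (r = 0.99), Nek6 (r = 0.98) and Cic (r = 0.98). Without litter 5 these were 0.79, 0.54 and 0.65, at ranks 5, 86 and 29. These correlations are descriptions over 12 libraries that share litters, TPM scaling and transcript length effects.

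The other genes of both families divided sharply by level. Of 14 other IL-6 family cytokines and receptors, 6 had a mean of at least 1 TPM. Il27 and Ebi3, which encode the subunits of IL-27, were abundant at 2134 and 656 TPM, and Il11ra1 was at 12.8 TPM. Lifr, the ligand-binding partner of gp130 for LIF, was at 0.183 TPM and Osmr, that for OSM, at 1.26 TPM. Il27 was higher in ErbB4myeKO in 3 of 6 litters (mean log2 ratio 0.26), as was Ebi3 (-0.10). Of the 6, 5 had a mean ratio above 0, with a median of 0.20. Without litter 6, Il27 had 0.34 and Ebi3 -0.01, 4 of the 6 were above 0 and the median was 0.27. None of 10 other IL-10 family genes reached 1 TPM. The highest were Il20rb at 0.694 TPM, Il22 at 0.179 TPM and Il20ra at 0.0723 TPM, of which Il20rb and Il20ra encode the receptor chains for IL-19.

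Downstream of both receptors, 10 of 11 JAK-STAT3 genes were tested, and Socs3 (451 TPM), Jak2 (218 TPM) and Stat3 (211 TPM) were the most abundant. Stat3 was lower in ErbB4myeKO in 6 of 6 litters, its ratio averaging -0.15 ± 0.16 on the log2 scale (SD, n = 6 litters, exact permutation p = 0.0312, unadjusted limma p = 0.067). Grb2, an adaptor that links receptors to RAS, was lower in 6 of 6 litters as well (-0.19, exact permutation p = 0.0312, unadjusted limma p = 0.0365). Tyk2, a JAK kinase used by IL-10Rβ, was higher by 1.03 and in 5 of 6 litters (exact permutation p = 0.0625, unadjusted limma p = 0.0332), but its levels ran from a listed 0 to 27.3 TPM. Of the 10, 3 had a mean ratio above 0 and 7 below, with a median of -0.12. Without litter 6, 8 of the 10 were below 0, the median was -0.14 and Stat3 had -0.17 (unadjusted p = 0.0658). In that fit Grb2 had -0.18 (unadjusted p = 0.0828) and Tyk2 0.73 (unadjusted p = 0.095), and Gab1, a docking protein, passed instead (-0.79, unadjusted p = 0.0134).

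All 9 genes of a list of transcripts known to be induced by IL-10 in macrophages had a mean ratio below 0, with a median of -0.25, where 50.2% of all genes tested were below 0. At an unadjusted p under 0.05, 3 of the 9 passed in the lower direction and 0 in the higher, against 4.38% and 3.83% of all genes tested, and none passed after adjustment. They were Bcl3, a nuclear IκB protein (-0.32), Il4ra, an IL-4 receptor chain (-0.59), and Il1rn, the IL-1 receptor antagonist (-0.23), with unadjusted p of 0.0257, 0.0268 and 0.0315 and exact permutation p of 0.0625, 0.0625 and 0.0938, in that order. Each was lower in 5 of 6 litters. Socs3, Il1rn and Bcl3 were the most abundant of the list, at 451, 395 and 62.1 TPM. The median of the list was -0.58 in litter 2, -0.64 in litter 3 and -0.25 in litter 4, but -0.01, -0.05 and 0.01 in litters 1, 5 and 6. Without litter 6, all 9 stayed below 0 with a median of -0.28, and 3 had an unadjusted p under 0.05, all lower, against 3.18% of all genes tested. These were Il1rn (-0.30), Il4ra (-0.74) and Nfil3 (-0.44). Their unadjusted limma p without litter 6 was 0.00515, 0.0122 and 0.0123. Bcl3 had -0.33 in that fit, with an unadjusted p of 0.053. Without litters 5 and 6, all 9 stayed below 0 with a median of -0.37. Many of these genes also respond directly to LPS, and Socs3 and Zfp36 are each in a second list. The list was chosen with earlier results of these data known, and its genes were measured in the same 6 litters. The count is thus a description and not 9 separate observations.

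**Figure D4:**
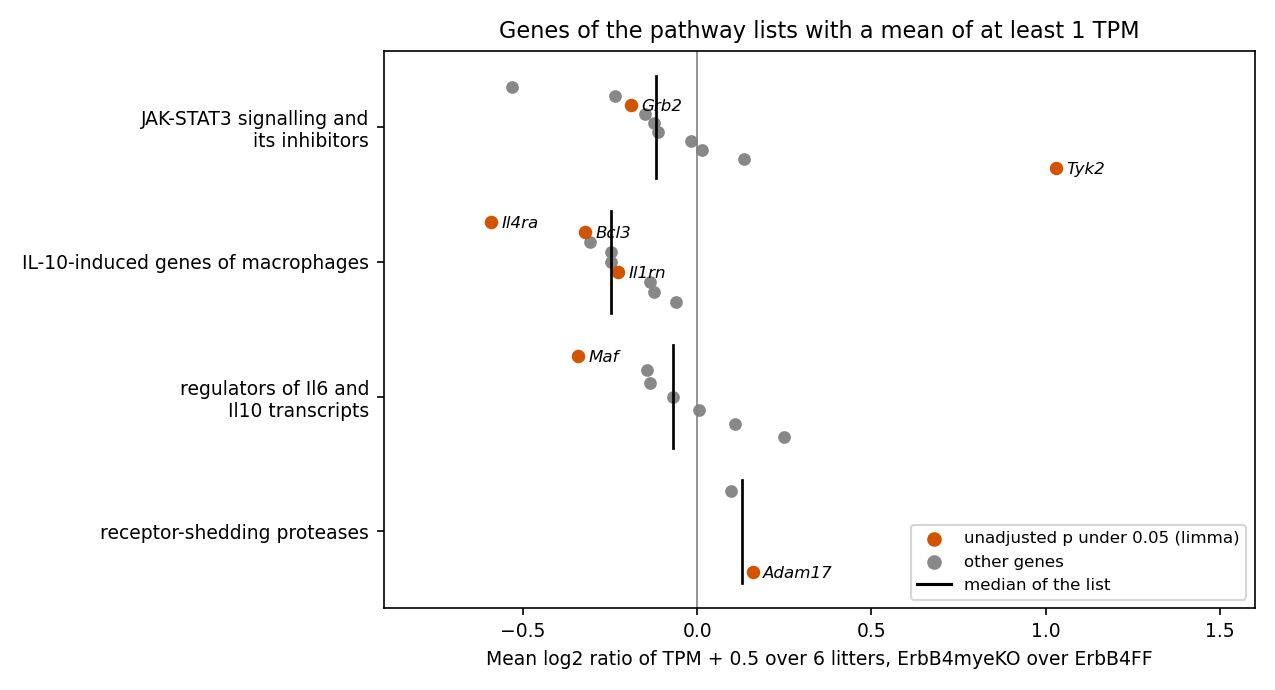
Mean log2 ratio over 6 litters, ErbB4myeKO over ErbB4FF, for the genes of 4 pathway lists with a mean of at least 1 TPM, each point a gene and each bar the median of its list, with genes at an unadjusted limma p under 0.05 in orange and named. The 9 IL-10-induced genes all lie below 0, with a median of -0.25, and both shedding proteases lie above 0. The lists were chosen with earlier results of these data known.

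Of 8 regulators of the Il6 and Il10 transcripts, 7 were tested. Nfkbiz (161 TPM), which encodes an IκB protein needed for Il6 induction, Cebpb (139 TPM) and Zc3h12a (96.4 TPM), which encodes an RNase that degrades Il6 mRNA, were the most abundant, with mean log2 ratios of 0.11, -0.15 and 0.0042. Maf, a transcription factor that drives Il10 in macrophages, was lower in ErbB4myeKO in 5 of 6 litters, by -0.34 ± 0.36 on the log2 scale (SD, n = 6 litters, exact permutation p = 0.0938, unadjusted limma p = 0.0325). It was the 1 gene of the 7 tested with an unadjusted limma p under 0.05, against 8.21% of all genes tested, and the median of the list was -0.07. Without litter 6, Maf had -0.29 (unadjusted p = 0.0938), Nfkbiz 0.16, Cebpb -0.15 and Zc3h12a 0.01, and the median was -0.09. Both proteases that shed the IL-6 receptor from the cell surface were expressed, Adam17 at 108 TPM and Adam10 at 28.8 TPM. Adam17 was higher in 5 of 6 litters, by 0.16 ± 0.11 on the log2 scale (SD, n = 6 litters, exact permutation p = 0.0625, unadjusted limma p = 0.0325), and Adam10 had 0.10. Without litter 6, Adam17 had 0.17 (unadjusted p = 0.0491) and Adam10 0.09.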

How the data were processed

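RNA of 12 cultures was sequenced as single-end reads of 75 bases. The authors pseudoaligned them with kallisto (genome build mm10 per the labels) and deposited TPM of the principal (APPRIS) transcripts, with a mean natural log of normalized counts per transcript over all libraries. Their columns of test statistics, p-values, q-values and ratios were not used. Of 29213 lines, 405 repeated a transcript and were dropped, leaving 28808 transcripts, and 35 gene symbols turned into dates were mended from GENCODE M21. TPM were summed per gene.

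The 8780 genes whose mean reached 1 TPM were fitted on log2(TPM + 0.5) with limma 3.58.1 (R 4.3.3, eBayes with trend), with a block for litter, and p-values were adjusted by Benjamini-Hochberg. Numbers in the titles pair littermates, whose deviations correlated by 0.273 to 0.774 in every litter. For single genes, an exact two-sided permutation test took all 64 swaps within litters. On simulated genotype effects in 8780 genes, 200 of them changed, the fit called 73% of those with a log2 change of 1 and 90% of those with 2, and 9 of 172 calls (5.23%) were false. The files used hold no read depth for single libraries. The deposited mean counts stood at 5.97 per TPM and kb (r = 0.996 across 6619 transcripts), so precision rests on the spread between litters.

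The 9 genes, the lists and the promoter motifs were chosen with earlier results of these data known. Named were the 9 genes, in each list the genes with an unadjusted p under 0.05 and the 3 highest by TPM, and for each member the 3 genes with the highest r among 5635 that averaged at least 5 TPM and were above 0 everywhere. The macrophage markers, Camp, S100a9, Ngp, Xcr1, Clec9a, Zbtb46, Flt3, Gab1, Nfil3, Ebi3, Lifr, Osmr, Il20, Il24, Il20ra, S100a8 and Adam10 were added after their values were seen. Some results that this rule selects are not reported here. Python 3.11.15 (pandas 2.3.3, scipy 1.17.1) was used.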

Additional observations from a re-analysis of the deposited data

Results flagged for a closer look

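Among 18 groups of 6 libraries (9 genes, 2 genotypes), 3 had a library whose gap to the nearest other library was, as a share of the range of the group, above the 95% critical value of Dixon's test. Chance flags about 1 in 20 groups. Il6ra in litter 5 was the lowest of both groups, with gaps of 0.805 of the range in ErbB4myeKO and 0.838 in ErbB4FF. Its transcript of 3343 bases falls in the length class that was at a median of -0.39 (log2) in litter 5. The parts of transcript length, and of reads assigned to the other annotated transcript of the gene, in the value were not tested. Il10rb in ErbB4myeKO was highest in litter 6, with a gap of 0.630, at 121 TPM against 95.3 to 104 TPM in the other libraries of the group. In ErbB4FF, Il10rb was highest in litter 6 too, at 133 TPM.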

How the results depend on the processing

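Of the 9 genes, 8 kept the direction of their log2 ratio under every alternative run, and Il10ra did not. Ranges were 0.41 to 1.11 for Il6, 0.27 to 0.75 for Lif, 0.16 to 0.38 for Osm, 0.21 to 0.58 for Il6ra, 0.10 to 0.34 for Il6st, -0.26 to -0.10 for Il10, -0.84 to -0.49 for Il19 and -0.15 to -0.10 for Il10rb. The ratio of Il10ra turned to 0.0014 with a covariate from Y-linked genes, to 0.0034 with principal TPM rescaled to 1 common total and to 0.0175 without litters 5 and 6, and leaving out single litters gave -0.083 to 0.053. The cause was not tested. Littermates had nearly the same Y-linked level in every litter, so that beside the litter block this covariate does not adjust for sex. Members with an unadjusted p under 0.05 numbered 0 without the replicate block, 2 with no filter or with median-ratio rescaling (Il19 and Il10rb), 0 with the most abundant transcript alone, and 0 to 2 with single litters left out. Genes past an adjusted p of 0.05 numbered 0 to 1 with single litters left out, the 1 being Igkv1-88 (-3.27, adjusted p = 0.0486 by limma) without litter 3. The smallest adjusted p over the other settings was 0.113 to 1.00. Genes at an unadjusted p under 0.05 fell from 721 to 75 with no replicate block, to 410 without litter 2 and to 455 without litter 4. Il6ra could not be tested with a filter of 5 TPM. Of the IL-10-induced genes, 8 to 9 stayed below 0. That count, the setting without litters 5 and 6, and the counts of lists and directions without litter 6 were added after seeing the data. Levels depend on the total they are scaled to: principal TPM rescaled to 1 common total gave means of 2797 for Il6, 201 for Il10ra, 169 for Il10rb, 86.9 for Il10, 27.6 for Il19, 14.4 for Osm, 10.5 for Lif, 9.8 for Il6st and 4.59 for Il6ra. The most abundant transcript alone gave 3.97 TPM for Il6st and 10.5 TPM for Il19. Median-ratio rescaling gave 1726 for Il6. TPM give no depth per library, and Il6ra, at a deposited mean of about 36.9 normalized counts, was the member with the fewest.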
